A study of Mus musculus with 7 samples.

Results

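DNA replication and mitosis genes are the set of 55 genes whose transcripts mark the S, G2 and M phases of the cell cycle, here 30 genes of G1/S regulation and DNA replication and 25 genes of mitosis. The members were given as a list of symbols, by a rule that uses no measured value, and all 55 were matched by Ensembl identifier among the 54446 genes of the count table and passed the filter on low counts that left 16438 genes. Polyadenylated RNA was sequenced from mouse pancreatic spheroids, which are 3-dimensional epithelial cultures. One group, post-caerulein, has 4 libraries (01 to 04) of spheroids derived from wild-type C57BL/6J mice that had received caerulein, a peptide related to cholecystokinin that inflames the pancreas. The other group, untreated, has 3 libraries (01 to 03) of spheroids from wild-type C57BL/6J mice without caerulein. Both were grown in the same medium, which held EGF, insulin, cholera toxin, hydrocortisone and bovine pituitary extract. The labels used here give neither the time after caerulein nor the mouse or culture behind a library, so p-values measure only the spread between these libraries.

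A cell that leaves G1 activates E2F factors, which induce cyclin E, the MCM helicase, the polymerases and the enzymes that make deoxynucleotides. Later, the MuvB complex with B-Myb and FOXM1 induces cyclin B, the mitotic kinases, kinetochore proteins and the anaphase-promoting complex. Normal adult pancreas epithelium divides rarely, and division increases during regeneration and in culture. In bulk RNA, a larger share of dividing cells and more transcript per dividing cell cannot be told apart.

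Total counts were 34783738 to 46744497 per library, and a count of 3, the limit that a count of 0 allows, corresponds to 0.0642 to 0.0862 CPM (read counts scaled to the same library total). Member counts were 22 to 13340 per library with a median of 1165, so each member was measured well above that limit. Within groups, 2 pairs of libraries were close: the biological coefficient of variation was 5.73% between post-caerulein 02 and 03 and 8.46% between untreated 01 and 02, whereas the next pair had 22%. Their counts still differed by more than sampling noise (chi-square per gene of 10.2 and 12.4). This cannot tell separate mice or cultures from separate preparations of the same culture. Each library was counted once, and fits with the close pairs summed are given beside the main ones. The authors' deposited fold changes are obtained to within 3.16e-08 (log2) when post-caerulein 04 and untreated 03 form one block (the smaller block) and the other 5 libraries another (the larger block). No label says what this block stands for. Ductal markers summed to 13700 to 20900 CPM in post-caerulein and 13400 to 15200 CPM in untreated libraries. Of 6 leukocyte markers, Cd68 was at 11.7 to 35.0 CPM in post-caerulein and 20.5 to 97.9 CPM in untreated libraries, while Ptprc and Adgre1 were at or near 0.

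The members differed more between libraries of a group than between the groups. In post-caerulein 01 to 04, the replication genes stood at a median of 0.38, -0.38, -0.51 and 0.65 on the log2 CPM scale relative to each gene's own mean over the 7 libraries. In untreated 01 to 03 the corresponding medians were 0.00264, 0.23 and -0.42. Mitosis genes stood at 0.060, -0.48, -0.58 and 0.58 in post-caerulein 01 to 04 and at 0.27, 0.38 and -0.22 in untreated 01 to 03. Both gene lists were therefore highest in post-caerulein 04 and lowest in post-caerulein 03, 2 libraries of the same group, and the groups overlapped for each list. The group means of these medians were 0.0362 ± 0.567 in post-caerulein (SD, n = 4) and -0.0611 ± 0.328 in untreated libraries (SD, n = 3) for replication genes, and -0.106 ± 0.536 in post-caerulein and 0.147 ± 0.320 in untreated libraries, with the same n, for mitosis genes, so the spread within a group was larger than the difference.

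Most single members were highest in the same library. Post-caerulein 04 had the highest level of 23 of 30 replication and 20 of 25 mitosis genes. The lowest level was in post-caerulein 03 for 16 replication and 21 mitosis genes, and in untreated 03 for 10 and 2. Summed over the members, replication transcripts made up 1142, 678, 644 and 1366 CPM in post-caerulein 01 to 04, against 830.0, 957 and 709 CPM in untreated 01 to 03. Mitosis transcripts summed to 1268, 813, 748 and 1655 CPM in post-caerulein 01 to 04, against 1331, 1433 and 997 CPM in untreated 01 to 03. The median ratio of a gene's highest to its lowest library was 2.44 for replication and 2.23 for mitosis genes, with extremes at Cdt1 (1.52) and E2f2 (8.71).

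**Figure D1:**
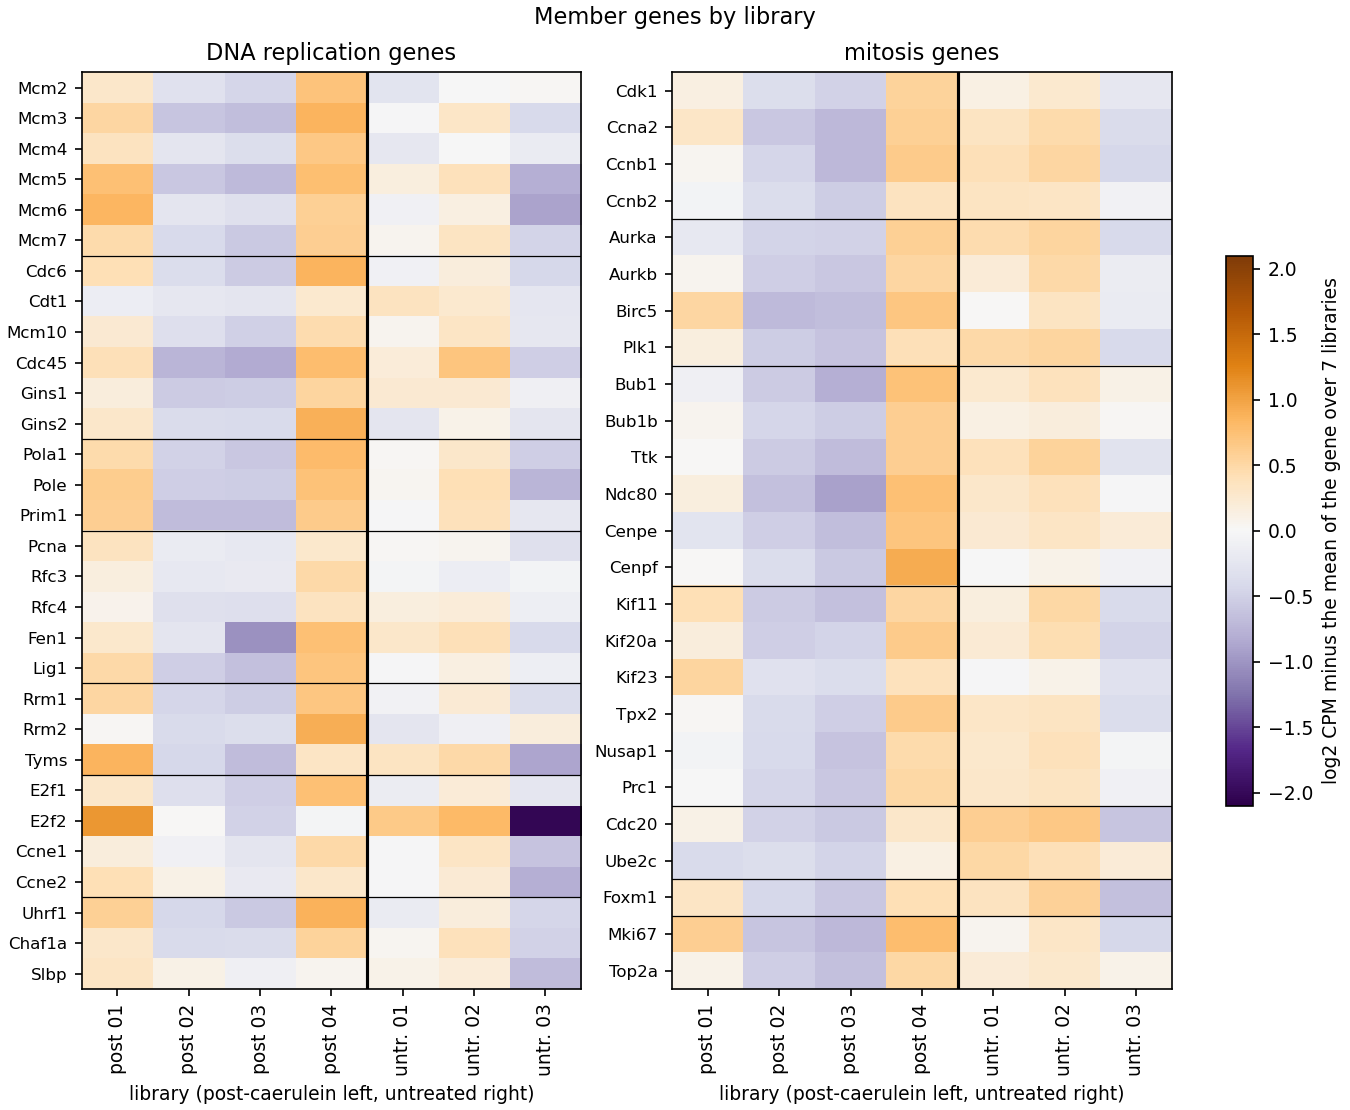
Log2 CPM of each of the 55 members minus its mean over 7 libraries (colour), with genes in rows, thin lines between roles, and libraries in columns, post-caerulein left and untreated right of the thick line. Post-caerulein 04 is high and post-caerulein 03 low in nearly every row, and Ube2c is the row in which every post-caerulein library lies below every untreated one.

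**Figure D2:**
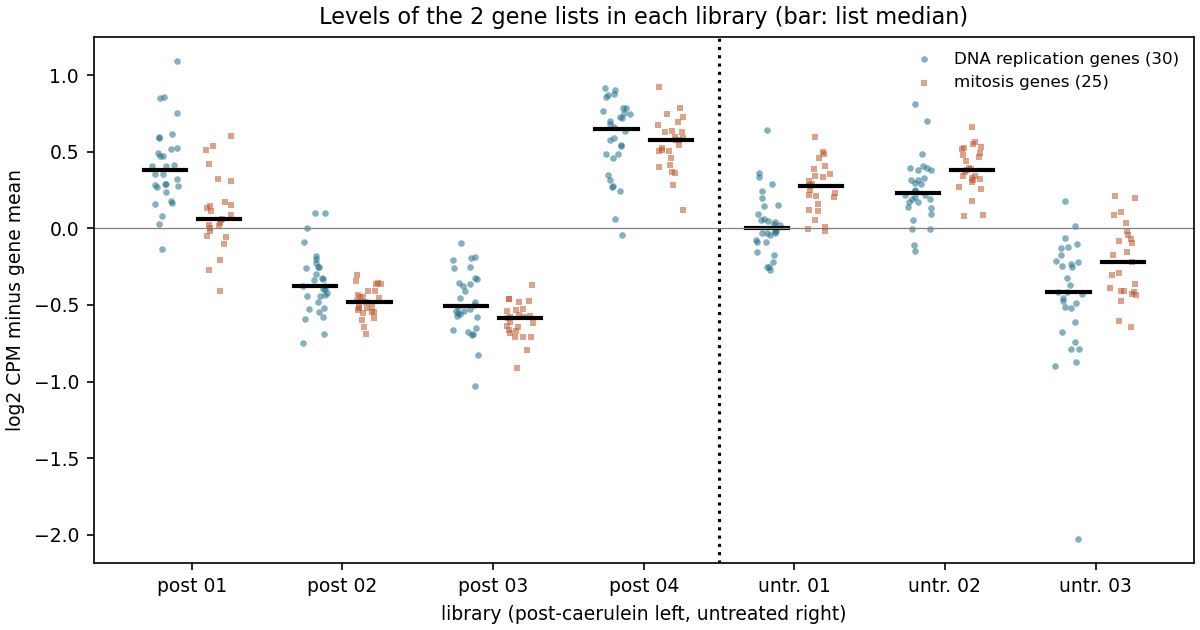
Each point is a member gene (circles, replication; squares, mitosis), placed by its log2 CPM minus its mean over 7 libraries, with the list median as a bar; post-caerulein libraries are left and untreated libraries right of the dotted line. The medians of both lists run from -0.58 to 0.65 over post-caerulein libraries and from -0.42 to 0.38 over untreated ones.

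Between the groups, no member passed the test. edgeR's quasi-likelihood test on group alone, with Benjamini-Hochberg adjustment over all genes, called 0 of 30 replication and 0 of 25 mitosis genes, where it called 0 of 16438 genes in all (0%), with a smallest adjusted p of 0.0997. Without adjustment, 1561 genes had a p under 0.05, of which 0 were replication genes and 1 was a mitosis gene, Ube2c. The log2 differences of replication genes (post-caerulein over untreated) had a median of 0.18, ran from -0.22 to 0.52 and were positive for 24 of 30. Those of mitosis genes had a median of -0.25, ran from -0.62 to 0.18 and were negative for 21 of 25, beside a median of -0.020 over all genes. The difference was smaller than its own standard error for 25 of 30 replication and 19 of 25 mitosis genes. These medians describe the lists and carry no test.

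**Figure D3:**
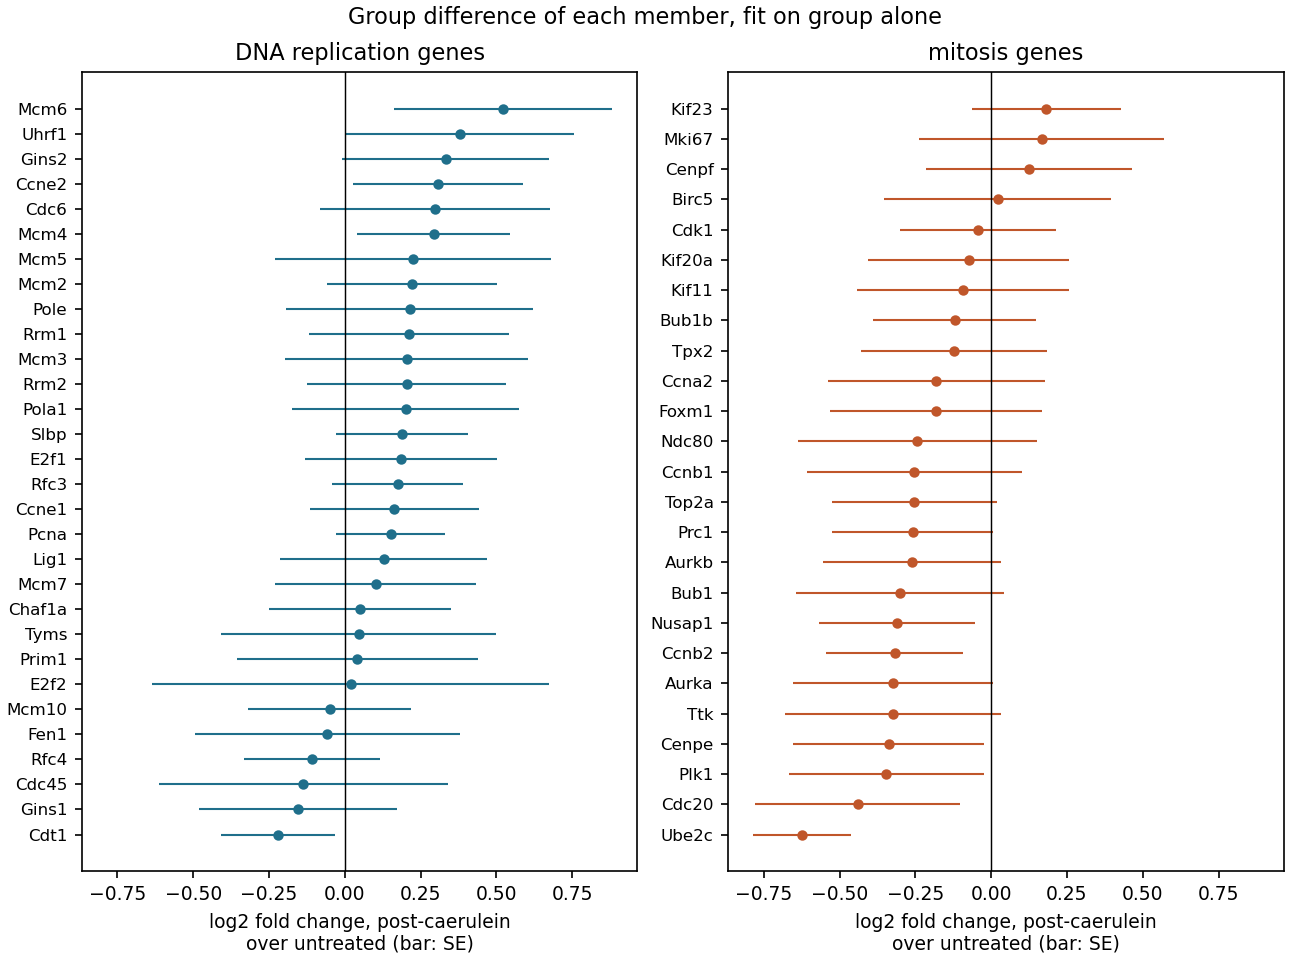
Log2 fold change of each member, post-caerulein over untreated, with its standard error as a bar, from the edgeR fit on group alone (4 against 3 libraries), sorted within replication (left) and mitosis genes (right). Most bars of the replication genes lie across 0 and Ube2c, at -0.62, lies farthest from 0.

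The groups did not overlap for 1531 of 16438 genes (9.31%), and for 1 of the 55 members. That member was Ube2c, the ubiquitin-conjugating enzyme that works with the anaphase-promoting complex. Ube2c (chromosome 2, 164769898 to 164778822, GRCm38) had 54.0, 56.3, 51.9 and 77.7 CPM in post-caerulein 01 to 04, against 101, 94.1 and 82.1 CPM in untreated 01 to 03. All 4 post-caerulein libraries lay below all 3 untreated libraries, the nearest being post-caerulein 04 and untreated 03. Its means were 60.0 ± 12.0 CPM in post-caerulein (SD, n = 4) and 92.4 ± 9.56 CPM in untreated libraries (SD, n = 3). Its log2 difference was -0.62 ± 0.16 (SE), with an unadjusted p of 0.00511 and an adjusted p of 0.269 in edgeR's quasi-likelihood test, so it was not called. DESeq2 gave it an adjusted p of 0.0419. Other normalisations and filters, limma-voom, each library left out in turn and close pairs summed gave adjusted p from 0.0554 to 1. Of its exon bases, 22.8% also belong to Tnnc2, a muscle troponin gene on the opposite strand, which was at 0 to 0.0445 CPM.

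Cdc20, the activator of the anaphase-promoting complex that Ube2c serves, had 42.1, 28.0, 26.3 and 47.4 CPM in post-caerulein 01 to 04, against 58.9, 61.7 and 25.6 CPM in untreated 01 to 03. Here untreated 03 was the lowest of all 7 libraries, so the groups overlapped, and the log2 difference was -0.44 ± 0.34 (SE; adjusted p = 0.798, edgeR quasi-likelihood).

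Promoter sequences are shown for members on which the results turn, to set the letters of replication genes beside those of mitosis genes. Of the 55 members, 45 matched a RefSeq table (GRCm38.p6) of windows from 250 bases before to 50 bases after the annotated start, with 52 windows. Capitals mark E2F letters (TTTCCCGC or TTTGGCGC), the cell cycle homology region CHR (TTTGAA) and the CCAAT box (CCAAT), each searched on both strands and shown on the strand of the gene. Windows of Mcm6 (chr1:128359656-128359955, minus strand) and Mcm5 (chr8:75109259-75109558, plus strand) come first, then those of Ube2c (chr2:164769679-164769978, plus strand), Aurka (chr2:172370521-172370820, minus strand), Cdc20 (chr4:118437294-118437593, minus strand) and Ccnb1 (chr13:100786437-100786736, minus strand).
Mcm6: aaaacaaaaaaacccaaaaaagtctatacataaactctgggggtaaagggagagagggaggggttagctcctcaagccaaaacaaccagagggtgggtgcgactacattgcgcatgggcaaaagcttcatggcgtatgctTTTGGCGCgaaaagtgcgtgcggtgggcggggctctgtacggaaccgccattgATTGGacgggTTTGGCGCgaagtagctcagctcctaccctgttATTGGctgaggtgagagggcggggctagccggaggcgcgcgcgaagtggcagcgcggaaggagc
Mcm5: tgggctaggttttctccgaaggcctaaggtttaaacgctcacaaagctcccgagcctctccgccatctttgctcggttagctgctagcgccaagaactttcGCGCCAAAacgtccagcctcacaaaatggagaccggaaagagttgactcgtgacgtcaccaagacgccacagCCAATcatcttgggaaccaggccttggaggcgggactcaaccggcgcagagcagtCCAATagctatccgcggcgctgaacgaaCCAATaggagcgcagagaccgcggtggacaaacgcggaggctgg
Ube2c: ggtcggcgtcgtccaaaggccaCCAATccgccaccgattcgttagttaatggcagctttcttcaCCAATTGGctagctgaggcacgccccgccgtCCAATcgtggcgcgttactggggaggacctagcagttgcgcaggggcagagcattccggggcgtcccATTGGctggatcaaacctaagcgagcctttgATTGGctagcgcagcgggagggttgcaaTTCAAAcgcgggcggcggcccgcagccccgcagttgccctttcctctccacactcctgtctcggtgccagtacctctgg
Aurka: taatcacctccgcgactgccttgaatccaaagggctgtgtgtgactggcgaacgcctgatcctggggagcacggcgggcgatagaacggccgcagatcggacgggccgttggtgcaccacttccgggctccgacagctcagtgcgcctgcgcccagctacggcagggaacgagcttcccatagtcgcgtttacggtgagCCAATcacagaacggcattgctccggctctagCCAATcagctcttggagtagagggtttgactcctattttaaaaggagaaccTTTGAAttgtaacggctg
Cdc20: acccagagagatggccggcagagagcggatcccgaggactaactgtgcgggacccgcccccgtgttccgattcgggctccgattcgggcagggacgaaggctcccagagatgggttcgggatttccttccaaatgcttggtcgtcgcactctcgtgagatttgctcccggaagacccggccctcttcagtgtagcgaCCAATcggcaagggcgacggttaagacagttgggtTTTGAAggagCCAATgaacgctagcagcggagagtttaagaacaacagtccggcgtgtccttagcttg
Ccnb1: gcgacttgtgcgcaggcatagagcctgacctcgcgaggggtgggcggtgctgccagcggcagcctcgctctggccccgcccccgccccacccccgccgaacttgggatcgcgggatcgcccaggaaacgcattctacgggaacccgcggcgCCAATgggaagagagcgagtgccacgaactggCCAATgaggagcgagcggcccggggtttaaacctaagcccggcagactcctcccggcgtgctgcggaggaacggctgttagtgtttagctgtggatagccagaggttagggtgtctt

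The E2F letters were in 9 of 31 windows of replication genes (29.0%) and 0 of 21 windows of mitosis genes, against 1.56% of all 32851 windows. CHR was in 4 of 31 replication windows (12.9%) and in 16 of 21 mitosis windows (76.2%), against 17.9% of all windows. CCAAT was in 20 of 31 replication windows (64.5%) and 18 of 21 mitosis windows (85.7%), against 37.4% of all. Mcm6 has 2 E2F matches and Mcm5 has 1. Ube2c has 1 CHR and 6 CCAAT matches, 2 of which overlap on opposite strands, and Aurka and Cdc20 each have 1 CHR and 2 CCAAT matches. Ccnb1 has 2 CCAAT matches and no TTTGAA in this window. These are matches of letters and do not show that a factor binds.

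Among the replication genes, the subunits of the MCM2-7 helicase, which unwinds DNA at the fork, were all positive in the group comparison. Mcm6 (chromosome 1, 128331590 to 128359664, GRCm38) had the largest log2 difference of the 30, with 130.2, 60.6, 57.6 and 108 CPM in post-caerulein 01 to 04, against 67.9, 79.4 and 38.7 CPM in untreated 01 to 03. Post-caerulein 01 and 04 were above all untreated libraries, while post-caerulein 02 and 03 lay between untreated 03 and untreated 01. Its log2 difference was 0.52 ± 0.36 (SE; adjusted p = 0.761, edgeR quasi-likelihood).

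Mcm5 had 42.9, 17.0, 15.7 and 43.3 CPM in post-caerulein 01 to 04, against 28.2, 33.4 and 14.7 CPM in untreated 01 to 03, so its high and low libraries were shared between the groups. Mcm2, Mcm3, Mcm4 and Mcm7 had log2 differences of 0.22, 0.20, 0.29 and 0.10. Their ratio of highest to lowest library was 2.26, 2.89, 2.03 and 2.22. None of the 6 subunits had an adjusted p under 0.761.

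Origin licensing and firing genes divided in direction. Cdt1, which loads the MCM helicase on origins, had 23.6, 22.1, 21.8 and 30.7 CPM in post-caerulein 01 to 04, against 33.2, 30.7 and 21.9 CPM in untreated 01 to 03. Untreated 01 was the highest library for Cdt1, and the 7 libraries spanned less than for any other member. Its log2 difference was -0.22 ± 0.19 (SE; adjusted p = 0.825, edgeR quasi-likelihood), the lowest of the replication genes.

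Cdc6, the partner of Cdt1 in licensing, and Gins2, a subunit of the GINS complex of the active helicase, were at log2 differences of 0.30 and 0.33. Mcm10, Cdc45 and Gins1, which act when the helicase is fired, were at log2 differences of -0.050, -0.14 and -0.15. Cdc45 had 7.54, 3.38, 3.20 and 9.79 CPM in post-caerulein 01 to 04, against 6.51, 9.25 and 3.96 CPM in untreated 01 to 03. Post-caerulein 04 and untreated 02 were its highest libraries, and post-caerulein 02 and 03 its lowest. Gins2 shares 70.7% of its exon bases with Gse1 on the opposite strand, which was at 50.8 to 84.6 CPM, and no source used here says whether counting used strand.

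The polymerase and primase genes Pola1, Pole and Prim1 were at log2 differences of 0.20, 0.21 and 0.042. Pole, the catalytic subunit of the leading-strand polymerase, had 36.2, 16.4, 16.3 and 39.1 CPM in post-caerulein 01 to 04, against 24.3, 31.4 and 14.1 CPM in untreated 01 to 03. Post-caerulein 02 and 03 were near untreated 03, and the other 2 post-caerulein libraries above all untreated ones. Pcna, the sliding clamp, had 105, 72.7, 71.3 and 99.0 CPM in post-caerulein 01 to 04, against 84.0, 85.3 and 65.8 CPM in untreated 01 to 03 and a log2 difference of 0.15 ± 0.18 (SE; adjusted p = 0.897, edgeR quasi-likelihood).

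The clamp loader genes Rfc3 and Rfc4 and the genes of Okazaki fragment maturation, Fen1 (a flap nuclease) and Lig1 (a ligase), were at log2 differences of 0.17, -0.11, -0.058 and 0.13. Fen1 was among the lowest members, at 0.990 to 3.38 CPM in post-caerulein and 1.51 to 2.66 CPM in untreated libraries. Of its exon bases, 84.1% also belong to Tmem258 or Gm10143 on the opposite strand, so its level is uncertain. Per kilobase of exon, E2f2 was the lowest of the replication genes, at 0.504 CPM per kb, and Rrm2 the highest, at 71.0 CPM per kb.

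Rrm2, the small subunit of ribonucleotide reductase, had 151, 113, 116 and 280.2 CPM in post-caerulein 01 to 04, against 125, 137 and 168 CPM in untreated 01 to 03. Post-caerulein 04 stood apart, and untreated 03 was above the other untreated libraries. Rrm1, the large subunit, and Tyms, which makes thymidylate, were at log2 differences of 0.21 and 0.046, and Rrm2 at 0.20. Tyms was highest in post-caerulein 01, at 18.6, 7.54, 6.36 and 12.8 CPM in post-caerulein 01 to 04, against 12.9, 14.3 and 5.58 CPM in untreated 01 to 03.

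The G1/S regulators E2f1 and E2f2, which are transcription factors, and Ccne1 and Ccne2, the E cyclins, were at log2 differences of 0.18, 0.020, 0.16 and 0.31. E2f2 had 4.26, 2.00, 1.43 and 1.93 CPM in post-caerulein 01 to 04, against 3.12, 3.50 and 0.489 CPM in untreated 01 to 03. Its level in untreated 03 was the lowest of any member in any library and rested on 22 counts. For Ccne2, untreated 03 was again the lowest, with 8.32, 6.71, 5.50 and 7.60 CPM in post-caerulein 01 to 04, against 6.14, 7.29 and 3.62 CPM in untreated 01 to 03.

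Uhrf1, which carries DNA methylation through replication, had 58.2, 28.5, 26.0 and 71.0 CPM in post-caerulein 01 to 04, against 34.2, 43.5 and 28.2 CPM in untreated 01 to 03 and a log2 difference of 0.38 ± 0.38 (SE; adjusted p = 0.861, edgeR quasi-likelihood). Chaf1a, a histone chaperone subunit, and Slbp, which binds the stem-loop of histone mRNA, were at log2 differences of 0.049 and 0.19. Of the exon bases of Chaf1a, 33.6% also belong to Ubxn6 on the opposite strand. In all 3, untreated 03 was below untreated 02.

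Among the mitosis genes, the cyclin-dependent kinase Cdk1 and its cyclins Ccna2, Ccnb1 and Ccnb2 had negative log2 differences of -0.044, -0.18, -0.25 and -0.32. Ccnb1 had 34.3, 24.4, 20.5 and 51.7 CPM in post-caerulein 01 to 04, against 44.4, 47.8 and 24.8 CPM in untreated 01 to 03. Post-caerulein 04 was above both untreated 01 and 02, and untreated 03 was close to post-caerulein 02. Ccnb1 and Ccnb2 each have 1 named pseudogene, Tyms has 1 and Pcna has 2, with which reads may be shared.

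The mitotic kinases Aurka, Aurkb and Plk1 and the passenger protein Birc5 were at log2 differences of -0.32, -0.26, -0.35 and 0.021. Aurka, the kinase of the spindle poles, had 17.8, 14.8, 14.7 and 30.6 CPM in post-caerulein 01 to 04, against 28.2, 29.7 and 15.4 CPM in untreated 01 to 03. Post-caerulein 04 and untreated 01 and 02 were the high libraries, and untreated 03 was at the level of post-caerulein 01, 02 and 03. Plk1, which drives mitotic entry and exit, had 34.0, 21.2, 20.0 and 40.5 CPM in post-caerulein 01 to 04, against 43.0, 44.2 and 23.1 CPM in untreated 01 to 03, again with untreated 03 among the low libraries.

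Kinetochore and spindle checkpoint genes were at log2 differences of -0.30 (Bub1), -0.12 (Bub1b), -0.32 (Ttk), -0.24 (Ndc80), -0.34 (Cenpe) and 0.12 (Cenpf). Bub1, Bub1b and Ttk are checkpoint kinases or their relatives, Ndc80 binds microtubules, Cenpe is a kinesin and Cenpf a large kinetochore protein. Cenpe had 40.6, 34.4, 30.8 and 79.3 CPM in post-caerulein 01 to 04, against 57.7, 61.1 and 56.8 CPM in untreated 01 to 03. Post-caerulein 04 was the highest library and the other 3 post-caerulein libraries were below all untreated ones.

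Spindle and cytokinesis genes ranged from -0.31 for Nusap1, which bundles spindle microtubules, to 0.18 for Kif23, a kinesin of the midzone. Kif11, Kif20a and Tpx2, which act in spindle assembly or cytokinesis, were at log2 differences of -0.093, -0.075 and -0.12, and Prc1, which crosslinks midzone microtubules, at -0.26. Kif23 had 114, 63.4, 60.6 and 101 CPM in post-caerulein 01 to 04, against 77.4, 83.2 and 63.4 CPM in untreated 01 to 03. Both the highest and the lowest library were post-caerulein. Kif20a and Prc1 share 33.2% and 21.8% of their exon bases with Cdc23 and Rccd1 on the opposite strand.

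Foxm1, the transcription factor of the G2/M genes, had 39.5, 23.4, 21.1 and 42.1 CPM in post-caerulein 01 to 04, against 40.3, 46.7 and 20.2 CPM in untreated 01 to 03 and a log2 difference of -0.18 ± 0.35 (SE; adjusted p = 0.945, edgeR quasi-likelihood). Top2a, which decatenates chromosomes, was at a log2 difference of -0.25 and was the most abundant mitosis gene per kilobase of exon, at 29.2 CPM per kb. Mki67, the common marker of dividing cells, had 215, 93.6, 86.6 and 244 CPM in post-caerulein 01 to 04, against 147, 175 and 105 CPM in untreated 01 to 03. Its means were 159.8 ± 81.5 CPM in post-caerulein (SD, n = 4) and 142 ± 35.4 CPM in untreated libraries (SD, n = 3), and the log2 difference was 0.17 ± 0.40 (SE; adjusted p = 0.955, edgeR quasi-likelihood).

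Set against the replication genes of the same library, the mitosis genes were lower in every post-caerulein than in every untreated library. The median of the mitosis genes minus that of the replication genes was -0.32, -0.10, -0.074 and -0.070 in post-caerulein 01 to 04, against 0.27, 0.15 and 0.20 in untreated 01 to 03 (log2). The means were -0.14 ± 0.12 in post-caerulein (SD, n = 4) and 0.21 ± 0.060 in untreated libraries (SD, n = 3). This difference of -0.35 is larger than either spread, and with means of the genes in place of medians it was also -0.35, again without overlap. Because it compares genes within a library, scaling between libraries does not enter it. It is a description of the chosen members and carries no test.

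The other genes of both processes gave a difference of the same sign with overlapping groups. For 41 other mitosis minus 34 other replication genes, the values were -0.22, -0.22, -0.34 and 0.18 in post-caerulein 01 to 04, against 0.28, 0.28 and -0.020 in untreated 01 to 03. Post-caerulein 04 was thus above untreated 03, and the groups were apart in the larger block and crossed in the smaller. The means were -0.15 ± 0.23 in post-caerulein (SD, n = 4) and 0.18 ± 0.17 in untreated libraries (SD, n = 3).

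**Figure D4:**
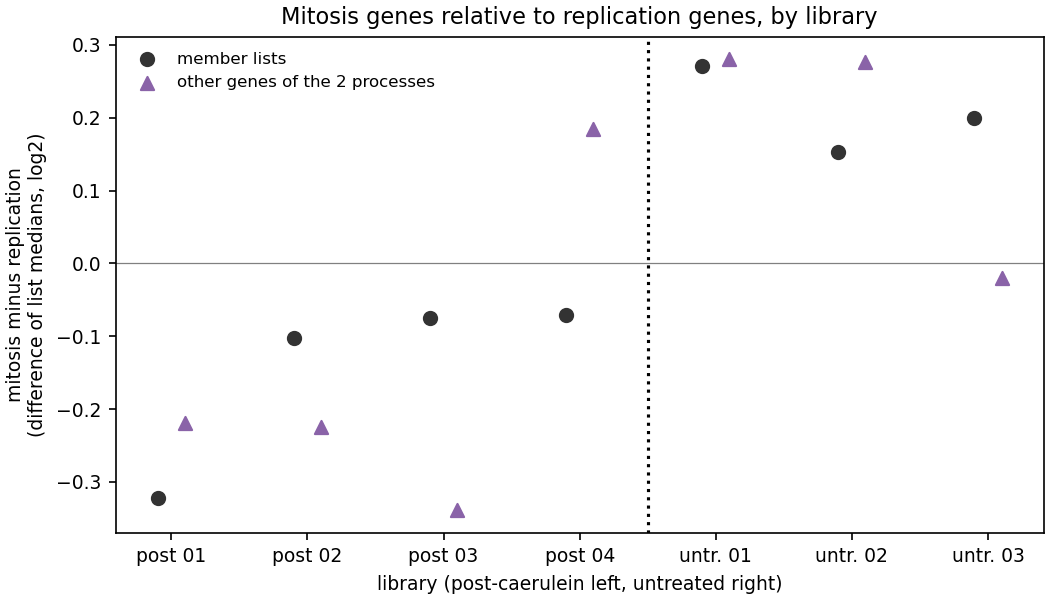
Difference between the medians of mitosis and replication genes in each library (log2), post-caerulein left and untreated right of the dotted line; circles are the members and triangles the other genes of both processes. The 4 circles of post-caerulein libraries lie between -0.32 and -0.070 and the 3 of untreated libraries between 0.15 and 0.27, while the triangles of post-caerulein 04 and untreated 03 cross over.

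With the block of the authors' table as a term, edgeR's quasi-likelihood test called 0 of 30 replication and 0 of 25 mitosis genes, where it called 251 of 16438 genes (1.53%). The median log2 differences were 0.17 for replication and -0.29 for mitosis genes. Ube2c, at -0.63 ± 0.15 (SE), had the smallest adjusted p of the members, 0.086. In the authors' deposited table, 1023 of 12983 genes had a false discovery rate under 0.05. Among the members, 0 of 30 replication genes and 1 of 25 mitosis genes did. The 1 member was Ube2c, at a log2 fold change of -0.61 and a rate of 0.00404.

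The group difference had opposite signs in the 2 blocks for most members. In the larger block, 26 of 30 replication genes were lower in post-caerulein 01 to 03 than in untreated 01 and 02 by their mean log2 CPM, with a median of -0.32. In the smaller block, which has 1 library a group and therefore no test, 30 of 30 were higher in post-caerulein 04 than in untreated 03, with a median of 1.06. For mitosis genes, 25 of 25 were lower in the larger block, with a median of -0.69. In the smaller block 24 of 25 were higher, with a median of 0.81, and Ube2c (-0.078) was the 1 that was not.

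Within the larger block, post-caerulein 01 differed from post-caerulein 02 and 03. Relative to the mean of untreated 01 and 02, it was higher for 25 of 30 replication genes, with a median of 0.32, but for 4 of 25 mitosis genes, with a median of -0.28. For most replication genes, the lower levels in the larger block were thus those of post-caerulein 02 and 03. Cdt1 was low in post-caerulein 01 too, at 23.6 CPM, against 33.2 and 30.7 CPM in untreated 01 and 02.

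**Figure D5:**
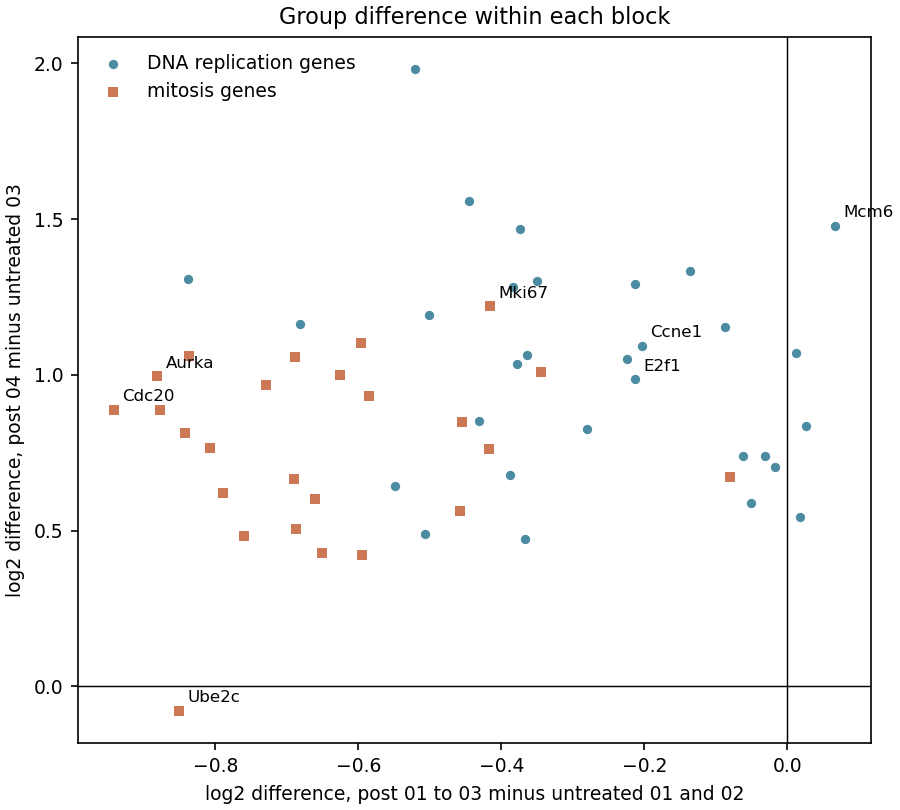
Log2 difference of each member in the larger block (horizontal: post-caerulein 01 to 03 minus untreated 01 and 02) and in the smaller block (vertical: post-caerulein 04 minus untreated 03), circles for replication and squares for mitosis genes. Nearly all points lie at the upper left, and Ube2c is the 1 point below 0 on the vertical axis.

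A test of the larger block alone (3 against 2 libraries) called 1 of 30 replication and 7 of 25 mitosis genes, all lower, where it called 2247 of 16276 genes (13.8%). The 1 replication gene was Cdt1, which fell by 0.48 on the log2 scale (adjusted p = 0.0176, edgeR quasi-likelihood). Among the 7 called mitosis genes, the largest falls were those of Cdc20, by 0.89 (adjusted p = 0.0296), Aurka, by 0.85 (adjusted p = 0.00605), and Ube2c, by 0.83 (adjusted p = 0.00163). Ccnb1, Ccnb2, Cenpe and Nusap1 were the other 4. Of the other genes of both processes, 1 of 34 replication and 14 of 41 mitosis genes were called in this test, all lower. The 1 replication gene, named after its value was seen, was Dbf4, the activating subunit of the Cdc7 kinase that fires origins, at a log2 difference of -0.48 ± 0.084 (SE; adjusted p = 0.0126, edgeR quasi-likelihood). Of the 30 genes of G1 control, 3 were called, Myc and Ccnd1 higher and Rb1 lower, and of the 14 repair genes 0. The calls changed with the libraries used: with the counts of each pair summed, 0 replication and 0 mitosis members were called, where 433 genes in all were. Without untreated 01 or untreated 02, 0 replication members and 1 mitosis member were called, where 302 and 424 genes in all were. Without post-caerulein 02 or 03, 0 replication and 3 mitosis members were called, where 1599 and 1247 genes in all were. Without post-caerulein 01, 21 replication and 25 mitosis members were called, where 5386 genes in all were. That test sets one close pair against the other, so its error is only the spread within the close pairs.

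The difference between the blocks was tested as the product of group and block. All 55 terms were positive (smaller minus larger block), with medians of 1.21 for replication and 1.39 for mitosis genes, and 1 and 4 passed, where 599 of 16438 genes did (3.64%). They were Cdt1 (1.00 ± 0.18, SE; adjusted p = 0.0376, edgeR quasi-likelihood), Aurka (1.87 ± 0.23; adjusted p = 0.016), Cenpe (1.23 ± 0.23; adjusted p = 0.0431), Tpx2 (1.60 ± 0.30; adjusted p = 0.0421) and Ube2c (0.77 ± 0.15; adjusted p = 0.0478). The smaller block has no replicate of its own, and with close pairs summed, or without untreated 01 or 02, 0 members passed, where 1 gene in all did. Without post-caerulein 02 or 03, 0 replication members and 1 mitosis member passed, where 348 and 244 genes in all did. Without post-caerulein 01, 29 replication and 25 mitosis members passed, where 4909 genes in all did. There too the error is only the spread within the close pairs.

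Markers of other cells differed between these libraries. The low-count filter kept 2 of 6 acinar, 2 of 5 islet, 5 of 7 fibroblast, 1 of 4 endothelial and 1 of 6 leukocyte markers. Summed fibroblast markers were 2.97 to 7.27 CPM in post-caerulein and 0.126 to 21.1 CPM in untreated libraries, highest in untreated 03. Acinar markers summed to 1.72 to 11.4 CPM in post-caerulein and 0.619 to 0.823 CPM in untreated libraries, and islet markers to 0.462 to 4.25 CPM in post-caerulein and 0.0247 to 0.400 CPM in untreated libraries. Leukocyte markers summed to 11.9 to 35.7 CPM in post-caerulein and 20.7 to 98.2 CPM in untreated libraries, nearly all of it Cd68, and endothelial markers to at most 0.798 CPM. Their part in the levels of the members was not tested.

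Among the other genes of the pathway, in the group comparison, 0 of 34 other replication genes, 0 of 41 other mitosis genes, 0 of 30 genes of G1 control and 0 of 14 genes of replication-coupled repair were called, with median log2 differences of 0.12, -0.17, -0.0098 and 0.012. With the block, 1 of these 119 genes was called, where 251 of 16438 genes in all were (1.53%). The 1 pathway gene was Rb1, the retinoblastoma protein that holds E2F in check, which fell by 0.56 on the log2 scale (adjusted p = 0.0310, edgeR quasi-likelihood). Rb1 had 60.6, 64.9, 64.7 and 57.8 CPM in post-caerulein 01 to 04, against 93.2, 85.9 and 94.1 CPM in untreated 01 to 03, and the groups did not overlap. That model made 0 calls over all genes once untreated 01 or untreated 02 was left out, or once the close libraries were pooled.

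Cdc25b, a phosphatase that starts Cdk1 activation, had 35.1, 44.2, 42.4 and 43.7 CPM in post-caerulein 01 to 04, against 65.4, 64.4 and 57.4 CPM in untreated 01 to 03. Its groups did not overlap either, and with the block its log2 difference was -0.60 ± 0.11 (SE; adjusted p = 0.0526, edgeR quasi-likelihood). Smc4, a condensin subunit, and Wee1, the kinase that opposes Cdc25b, were lower without overlap as well, at log2 differences of -0.38 and -0.32 on group alone, and Rnaseh2a, of the nuclease that removes ribonucleotides, was higher without overlap at 0.21. These genes were named after their overlap was seen. The groups did not overlap for 1 of 34 other replication, 2 of 41 other mitosis, 2 of 30 G1 control and 0 of 14 repair genes. Over all genes, this held for 1531 of 16438 (9.31%). Cdc25b, Smc4, Wee1 and Rnaseh2a did not pass an adjusted p of 0.05 on group alone or with the block. In the larger block alone, Cdc25b had a log2 difference of -0.65 ± 0.12 (SE; adjusted p = 0.0138, edgeR quasi-likelihood). The authors' deposited table gives Cdc25b a false discovery rate of 0.00508.

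Among genes of G1 control, Myc, a growth-promoting factor, had 88.1, 144, 154 and 202 CPM in post-caerulein 01 to 04, against 43.3, 36.2 and 205 CPM in untreated 01 to 03. Untreated 03 was as high as post-caerulein 04, and the log2 difference was 0.63 ± 0.61 (SE; adjusted p = 0.858, edgeR quasi-likelihood). Fitted with the block term, Myc had a log2 difference of 1.19 ± 0.38 (SE; adjusted p = 0.164), and in the larger block alone one of 1.72 ± 0.25 (SE; adjusted p = 0.0071). The authors' deposited table gives Myc a false discovery rate of 0.00264. Ccnd1, the D cyclin of G1, had 887, 906, 795 and 1379 CPM in post-caerulein 01 to 04, against 536, 551 and 1229 CPM in untreated 01 to 03, likewise with untreated 03 and post-caerulein 04 as the high libraries. In the larger block alone its log2 difference was 0.69 ± 0.10 (SE; adjusted p = 0.00799, edgeR quasi-likelihood). Unlike the medians of the replication and mitosis lists, these 2 were thus high in both libraries of the smaller block. Rrm2, a replication member, was likewise highest in post-caerulein 04 (280.2 CPM) and next highest in untreated 03 (168 CPM).

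The inhibitors Cdkn1a, Cdkn1b and Cdkn2a were at log2 differences of -0.17, -0.27 and -0.73. Cdkn2a had 10.3, 6.57, 5.31 and 2.77 CPM in post-caerulein 01 to 04, against 14.9, 14.7 and 1.38 CPM in untreated 01 to 03, with the 2 libraries of the smaller block lowest. Ccnd2, Cdk2, Cdk4, Rbl1, E2f7 and E2f8 were at log2 differences of 0.24, 0.055, 0.032, 0.073, 0.082 and 0.15, and their smallest adjusted p was 0.827, that of Ccnd2 (edgeR quasi-likelihood).

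Of the other replication genes, Tk1, a thymidine kinase, was at a log2 difference of 0.40, and Orc1, Pold1, Gmnn and Clspn at 0.18, 0.12, 0.047 and 0.24. Rpa2, of the protein that coats single-stranded DNA, was the nearest to 0 of those named. Cenpa, the centromeric histone, was at a log2 difference of -0.45, Mad2l1, a checkpoint protein, at -0.14, Pttg1, the securin, at -0.24, Mybl2, the B-Myb factor, at 0.080 and Kif2c, a microtubule depolymerase, at -0.19. Chek1, a checkpoint kinase, was at a log2 difference of 0.27.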

How the data were processed

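Spheroid RNA was purified on poly-T beads and made into Illumina TruSeq libraries, per the labels' protocols. The authors deposited raw read counts per gene, with exon coordinates, per the file headers. Reads were counted with featureCounts (version 0.6.1) on GRCm38, also called mm10, per the submitters' processing notes, and no source used here names the aligner. The authors' deposited edgeR table (version 3.2.2 in those notes) holds log2 fold changes, log2 CPM, a likelihood ratio score, p-values and FDR per gene, per the file headers.

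Groups came from the sample titles. Counts were filtered (filterByExpr, minimum count 10, minimum total 15), scaled by TMM and tested two-sided with edgeR 4.0.16 (quasi-likelihood, robust, R 4.3.3), with Benjamini-Hochberg adjustment over all genes tested and a threshold of 0.05. Levels are CPM with TMM-scaled totals, and SE is the log2 fold change over the root of its F value. Symbols were matched for 54409 of 54446 genes. The block was found by comparing linear differences of log2 CPM under 63 candidates with the authors' fold changes. The closest candidates and no block were then refitted by the likelihood ratio test. The refit with this block gave 1023 of the authors' 1023 calls, and the refit without a block gave 320 calls, of which 319 were shared. The fits with the block as a term and in the larger block alone use it, and the product of group and block was added after seeing the data.

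The rule for the members uses no measured value, but the members, the lists of other pathway genes and markers and the block were all proposed with earlier results of these data known. All 55 members, 26 pathway genes and any pathway gene past the threshold in the fit on group alone or with the block term were to be named; genes called only in the larger block were not part of this rule. The values of 2 of the 26 are not reported here. Alternatives were RLE and upper quartile scaling, no filter, a strict filter (50 counts in 3 libraries), DESeq2 1.42.0, limma-voom (limma 3.58.1), close pairs summed, a block for the replicate number, and leaving each library out. Limits at 0 counts cover counting error only.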

Additional observations from a re-analysis of the deposited data

Results flagged for a closer look

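The mitosis level relative to the replication level set 1 post-caerulein library apart: at -0.32, post-caerulein 01 was below -0.10, -0.074 and -0.070 in the other 3, and its gap was 0.873 of the range, above Dixon's critical value for 4 libraries. This was 1 of 58 values examined in this way (the 55 members and 3 list summaries), and chance flags about 1 in 20, a larger share. With means of the genes in place of medians, post-caerulein 01 to 04 were more evenly spread, at -0.30, -0.13, -0.12 and -0.034. For the other genes of both processes they were at -0.22, -0.22, -0.34 and 0.18, and post-caerulein 01 was not the lowest.

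The group difference differed between the blocks, by a test of the product of group and block in edgeR's quasi-likelihood fit, for 5 of the 55 members. Over all genes it did so for 599 of 16438 (3.64%). The terms (smaller minus larger block, log2) were 0.9964 for Cdt1, 1.873 for Aurka, 1.233 for Cenpe, 1.605 for Tpx2 and 0.7728 for Ube2c, and each gene was lower in post-caerulein than in untreated libraries of the larger block. In the smaller block, Ube2c was nearly equal in post-caerulein 04 and untreated 03, and the other 4 were higher in post-caerulein 04. Summed close pairs left 0 of these calls, and leaving out single libraries of the larger block changed them, as given above. The cause was not tested, and the smaller block and its libraries cannot be told apart.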

How the results depend on the processing

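Genes called between the groups numbered 0 in the group fit, with RLE or upper quartile scaling, the strict filter, limma-voom, the replicate block and summed pairs. There were 251 with the block of the authors' table, 2247 in the larger block, 23 without a filter, 509 with DESeq2 and 0 to 1149 with each library left out (1149 without untreated 03, 57 without post-caerulein 04). Replication members called were 1 in the larger block and 0 in the other settings. Mitosis members called were 7 in the larger block, 1 with DESeq2 (Ube2c) and 0 in the other settings.

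With the block term, leaving out each library gave 0 to 2267 genes, 0 to 1 replication and 0 to 9 mitosis members (2267 genes when untreated 03 was left out, 2086 for post-caerulein 04, 131 for post-caerulein 01, 29 for post-caerulein 02, 3 for post-caerulein 03, and 0 for untreated 01 or 02). Summed pairs gave 0 genes, and the likelihood ratio test gave 1023 genes with 1 mitosis member. In the larger block, leaving out each library gave 302 to 5386 genes, 0 to 21 replication and 1 to 25 mitosis members, and summed pairs gave 433, 0 and 0. For the product of group and block the ranges were 1 to 4909, 0 to 29 and 0 to 25, and summed pairs gave 1, 0 and 0.

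The median log2 difference of replication members (0.18) was -0.22 in the larger block, -0.082 with the replicate block and -0.018 to 0.31 with each library left out, below 0 only without post-caerulein 04. That of mitosis members (-0.25) stayed negative in every setting run, from -0.62 to -0.011. The mitosis minus replication difference of -0.35 was -0.35 with means and -0.33 for the other genes of both processes. Among libraries 01 to 03 of both groups, deviations of libraries with the same number correlated at 0.372, 0.141 and -0.21. Of these 6 libraries, 2 correlated best with their own number. With so few libraries, this cannot tell whether the replicate numbers pair them. The replicate block called 0 genes, as the group fit did. Scaling moved the median of all genes by under 0.1. Calls in the larger block and for the product of group and block were most numerous without post-caerulein 01, when only the close pairs measure the spread. The causes of these changes were not tested. Depth limits E2f2 and Fen1 most.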
